A study of Mus musculus with 6 samples.

Results

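The axon guidance receptors and ligands described here are 68 autosomal protein-coding genes: semaphorins of classes 3 to 7, plexins, neuropilins, Slits, Robos, netrins, Dcc, Unc5 receptors, ephrins and Eph receptors. They were chosen by a rule on symbols that used no measured values, although earlier results of these data were known. Each accessible peak was given to its nearest protein-coding gene within 100 kb of the peak summit, and 1413 of 204650 autosomal peaks of one list and 872 of 138130 of the other fell to these genes. The genes are 68 of 20665 on the autosomes.

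The study profiled open chromatin by ATAC-seq, in which Tn5 transposase cuts accessible DNA, in mouse epiblast stem cells (cells of the post-implantation epiblast) kept as embryoid bodies until day 2 of serum differentiation. The 3 knockout libraries lack Mixl1, a homeobox factor of the primitive streak. The 3 induced libraries came from Mixl1-inducible lines treated with 1 µg/mL doxycycline over 24 h. The labels state neither the strain, the inducible promoter, the Mixl1 alleles and the number of lines nor whether the knockout saw doxycycline. Effects of Mixl1, of the drug and of the line cannot be told apart. All cells had been routinely grown on feeder fibroblasts, and 50000 cells went into each library. Each group is represented by 1 deposited peak list. One is named KO. The other is named FM, which no label explains, and by elimination it was taken to be that of the induced libraries. The labels do not say that the 3 libraries of a group were separate cultures. A list that stands for a whole group leaves no replicate error, so the values are described without a test.

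Axon guidance genes encode secreted or membrane-bound cues and the receptors that read them. Semaphorins act through plexins, with neuropilins as co-receptors of the secreted class, Slits repel cells through Robo receptors, and netrins attract through Dcc and repel through Unc5 receptors. Ephrins sit on the cell surface and bind Eph receptor tyrosine kinases on neighbouring cells. Outside the nervous system these families guide vessels, migrating cells and the boundaries between embryonic tissues.

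Gene starts and the sequence before them came from a RefSeq promoter table of GRCm38.p6, the assembly behind mm10, in which 58 of the 68 genes had an entry. Dcc, Efnb3, Ntn1, Plxna1, Plxna4, Sema3b, Sema3f, Sema6a, Slit1 and Unc5d had none. Below are the 200 bases before the start of 6 genes, 5′ to 3′ on the gene's strand. Ephb3, Sema5a and Ephb6 are shown because their starts lay in peaks among those of highest fold, and Efna3, Epha3 and Sema4a because the start lay in a peak of 1 list only. Capitals mark matches to the motifs searched, which in these windows were all GGGCGG or its reverse complement, the GC box bound by Sp factors. The Epha3 window held no match.
Ephb3 (chr16:21204595-21204794, plus strand): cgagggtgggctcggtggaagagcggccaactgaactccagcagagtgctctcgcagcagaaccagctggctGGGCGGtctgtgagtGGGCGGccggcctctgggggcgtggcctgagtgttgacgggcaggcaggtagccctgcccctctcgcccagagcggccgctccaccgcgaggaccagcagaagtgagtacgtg
Sema5a (chr15:32244613-32244812, plus strand): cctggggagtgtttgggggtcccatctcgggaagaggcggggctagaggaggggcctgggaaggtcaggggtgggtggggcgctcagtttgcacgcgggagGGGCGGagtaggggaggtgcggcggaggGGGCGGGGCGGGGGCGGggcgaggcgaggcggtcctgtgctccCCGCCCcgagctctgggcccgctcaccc
Ephb6 (chr6:41605311-41605510, plus strand): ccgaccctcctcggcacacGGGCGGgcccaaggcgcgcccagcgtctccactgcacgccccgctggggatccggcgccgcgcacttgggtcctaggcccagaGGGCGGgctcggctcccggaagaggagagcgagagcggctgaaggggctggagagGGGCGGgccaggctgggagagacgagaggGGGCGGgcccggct
Efna3 (chr3:89322940-89323139, minus strand): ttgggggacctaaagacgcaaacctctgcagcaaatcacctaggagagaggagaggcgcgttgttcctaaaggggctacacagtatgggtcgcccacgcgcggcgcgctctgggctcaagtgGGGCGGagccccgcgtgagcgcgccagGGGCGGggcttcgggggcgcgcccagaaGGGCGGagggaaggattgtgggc
Epha3 (chr16:63864176-63864375, minus strand): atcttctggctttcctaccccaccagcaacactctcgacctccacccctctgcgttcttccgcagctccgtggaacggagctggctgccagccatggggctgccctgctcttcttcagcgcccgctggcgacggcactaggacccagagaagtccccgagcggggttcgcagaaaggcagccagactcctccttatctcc
Sema4a (chr3:88461183-88461382, minus strand): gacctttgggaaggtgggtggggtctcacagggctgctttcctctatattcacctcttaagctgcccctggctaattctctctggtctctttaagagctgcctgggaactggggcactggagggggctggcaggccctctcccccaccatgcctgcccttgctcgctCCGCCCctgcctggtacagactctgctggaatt
The Ephb3 start lay in a peak of fold enrichment 5.49 (FM) and 6.77 (KO), where fold enrichment is the summit signal over the local background as the authors' peak caller gave it. The Sema5a start had 5.39 and 4.82, and the Ephb6 start 5.16 and 6.76. The Ephb3 window held 15 CpG dinucleotides, the Sema5a window 17 and the Ephb6 window 22, and the Sema4a window held 2.

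Regions were made by merging the overlapping peaks of both lists, and a region is shared when it holds peaks of both and specific to a list otherwise. The 68 genes had 1590 regions, of which 639 were shared, 743 held FM peaks only and 208 held KO peaks only. FM-specific regions were 78.1% of the specific ones (exact Clopper-Pearson 95% interval 75.4 to 80.7, which covers the counting of regions only). Over all autosomal protein-coding genes the share was 73.7%. This interval and those below take regions as separate, although many lie side by side in the same gene. They therefore serve as no test. As parts of all regions, FM-specific ones were 46.7% at the guidance genes against 43.5% over all genes, and KO-specific ones 13.1% against 15.5%. More accessibility per cell and more cells with an open region cannot be told apart in such bulk data.

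The surplus of 4.42 percentage points over all genes was not kept without 3 long genes, nor in full among stronger peaks, where it was 1.35 points for −log10 q of 5 and above with all genes kept. Plxna4, a plexin that forms semaphorin receptors with neuropilins, had 12 shared, 81 FM-specific and 2 KO-specific regions. Slit3, a secreted ligand of Robo receptors, had 67, 97 and 18. Ephb1, a receptor of B-class ephrins, had 28, 64 and 6. These genes held 268 of the 951 specific regions. They were picked for their many FM-specific regions after these had been seen, so leaving them out lowers the share by construction. Without them the FM-specific share was 73.4%, a difference from all genes of −0.357 percentage points.

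**Figure D1:**
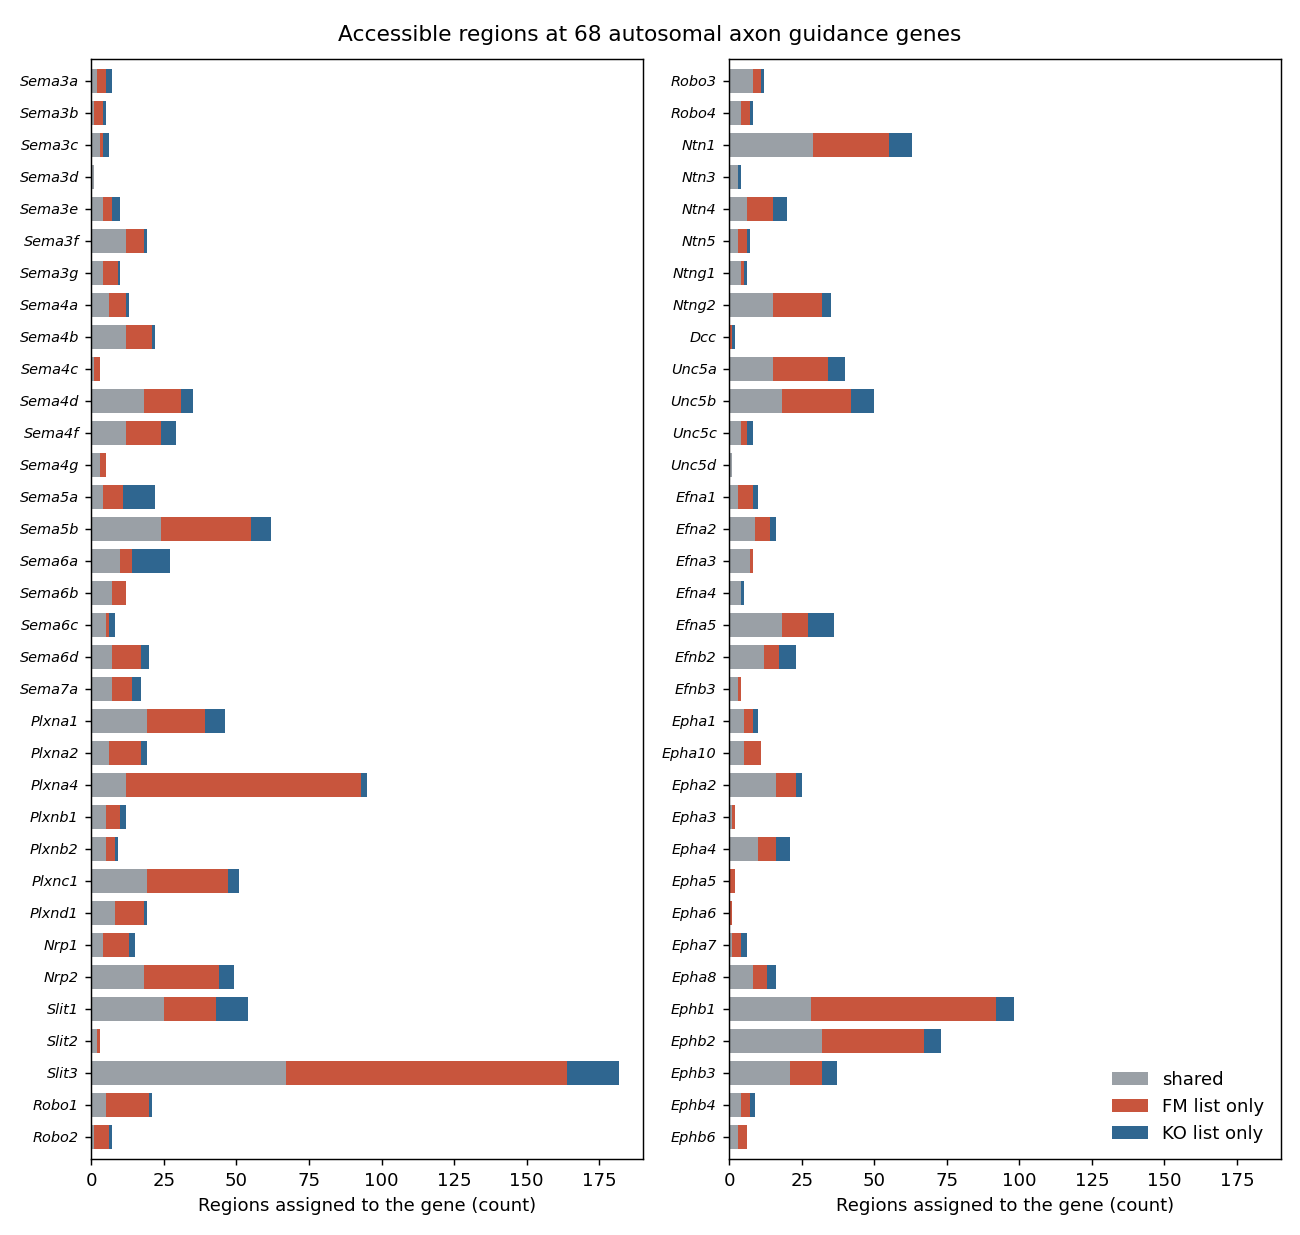
Number of accessible regions (x axis) at each of the 68 genes (y axis, ordered by class), split into shared regions (grey), FM list only (red) and KO list only (blue). Slit3, Ephb1 and Plxna4 carry the longest bars, and at Plxna4 81 of 95 regions are in the FM list only.

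Specific peaks were mostly weak. The median fold of specific peaks at these genes was 1.82 (FM) and 1.87 (KO), and of shared peaks 2.06 and 2.01. Fold and p-value together give back the pileup at a summit, counted here as fragments. Whether a Tn5 shift was used was not given, so the unit could also be extended reads or cut sites. At the guidance genes the median FM-specific summit had 71 fragments and the median KO-specific one 68. The lowest background in the lists was 28.6 fragments (FM) and 28.8 (KO).

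Every one of the 68 genes had at least 1 region, against 86.4% of all autosomal genes, and the median number of regions per gene was 12.5 against 6. The guidance genes were also longer, with a median of 64.9 kb against 17.5 kb. Of the 66 genes with a specific region, FM-specific regions were the more numerous in 54 (81.8%) and KO-specific ones in 7 (10.6%). Over all genes these shares were 76.6% and 15.5%. Among the 45 guidance genes with at least 5 specific regions, the median FM-specific share was 76.5%, and among all such genes 77.4%. Of these 45, 7 (15.6%) had at least 90% in the FM list, near the 16.6% of all genes, and 3 (6.67%) had under 50%, against 9.72%. Gene by gene, the family's spread was therefore close to that of all genes.

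Receptor genes and ligand genes differed in their split, in part through Plxna4 and Ephb1. At the 32 receptor genes 415 regions were FM-specific and 80 KO-specific, a share of 83.8% (interval 80.3 to 87.0). The 36 ligand genes had 328 and 128, or 71.9% (interval 67.6 to 76.0). FM-specific regions were the more numerous at 29 receptors and KO-specific ones at 0, and among the ligands these counts were 25 and 7. Over all genes with a specific region the shares were 76.6% and 15.5%. Some leads were 1 region to 0, toward FM at Epha3, Epha6, Slit2 and Efnb3 and toward KO at Efna4 and Ntn3. Without Plxna4 and Ephb1 the receptor share was 78.9% (interval 74.2 to 83.2), and without Slit3 the ligand share was 67.7% (interval 62.5 to 72.7). Without members on chromosomes 15 and 18, where KO-specific regions were frequent in all genes, the shares were 84.0% (interval 80.5 to 87.2) at receptors and 75.3% (interval 70.9 to 79.4) at ligands. With Plxna4 and Ephb1 left out as well, which touches no ligand, the receptor share was 79.2% (interval 74.4 to 83.4). Leaving out Plxna4 and Ephb1 alone already made the receptor interval (74.2 to 83.2) overlap that of all ligands (67.6 to 76.0). The receptor share stayed the higher one, at 78.9% against 71.9%. Because the intervals serve as no test, neither overlap nor its absence decides whether the classes differ. With 50000 peaks of lowest p-value from each list the split of receptors and ligands was alike, at 51.9% and 50% FM-specific, against 50.6% over all genes. In that setting a specific region can overlap a weaker peak left out of the other list.

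**Figure D2:**
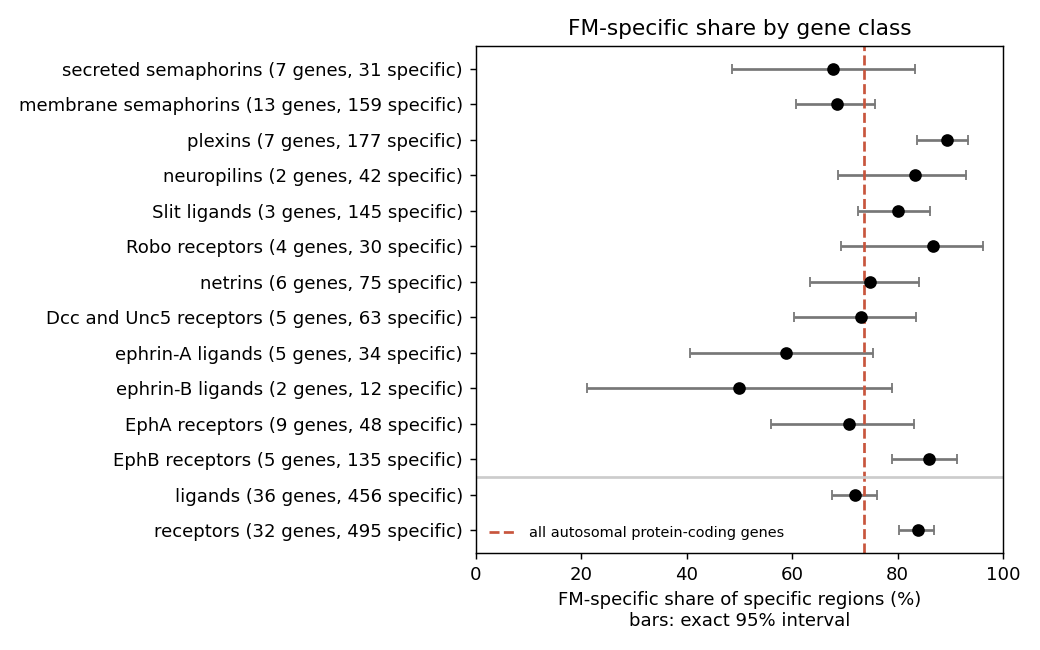
Share of specific regions that were in the FM list only (x axis, percent) for each class and for all ligands and receptors, with exact 95% intervals as bars and the value of all autosomal protein-coding genes, 73.7%, as a dashed line. Plexins (89.3%) and EphB receptors (85.9%) lie above the line with their intervals, and the ephrin classes have the lowest points and wide intervals.

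Among the ligands, the 7 secreted semaphorins had 27 shared, 21 FM-specific and 10 KO-specific regions. They are mostly repellents read by neuropilin and plexin complexes. Sema3f had 12, 6 and 1 regions of these kinds, Sema3e 4, 3 and 3, and Sema3d a single shared region. Sema3a, Sema3c and Sema3e lie on chromosome 5 in surroundings rich in KO-specific regions. Within 2 Mb of Sema3e, its own regions left out, 13.0% of specific regions were FM-specific, and near Sema3a and Sema3c 15.2% and 21.4%. Sema3d, on the same chromosome, had 58.8% around it. The chromosome as a whole had 77.9%.

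The 13 membrane semaphorins had 116 shared, 109 FM-specific and 50 KO-specific regions, a share of 68.6%. Sema5b, a transmembrane semaphorin with thrombospondin repeats, had 24, 31 and 7. Sema6a, a transmembrane ligand that binds A-type plexins, had 10 shared, 4 FM-specific and 13 KO-specific regions, and Sema5a 4, 7 and 11. Both lie on chromosomes where the KO list was rich. The surroundings of Sema6a on chromosome 18 were 31.5% FM-specific and those of Sema5a on chromosome 15 were 40.5%, beside 23.5% and 38.9% at the genes themselves. Sema6b went the other way with 7 shared, 5 FM-specific and 0 KO-specific regions. Sema4d, which signals through plexin B1, had 18, 13 and 4.

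The 3 Slit genes had an FM-specific share of 80%. Slit1 had 25 shared, 18 FM-specific and 11 KO-specific regions, in surroundings of 80.6% FM-specific. Slit2 had 3 regions over 326 kb, all inside the gene. The 6 netrin genes had 60 shared, 56 FM-specific and 19 KO-specific regions. Ntn1, the secreted netrin that attracts commissural axons, had 29, 26 and 8, and Ntng2, a membrane-anchored netrin-G, had 15, 17 and 3.

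The ephrin genes had the lowest shares. The 5 ephrin-A genes, whose products are anchored by a lipid, had 41 shared, 20 FM-specific and 14 KO-specific regions (58.8%, interval 40.7 to 75.4). Efna5 had 18, 9 and 9, and Efna2 had 9, 5 and 2. The 2 autosomal ephrin-B genes, whose products span the membrane, had 15, 6 and 6. Efnb2, the arterial ephrin, had 12, 5 and 6, in surroundings of 69.0% FM-specific, and Efnb3 had 3, 1 and 0. The ephrin intervals include the value of all genes.

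Among the receptors, the 7 plexins had 74 shared, 158 FM-specific and 19 KO-specific regions, a share of 89.3% (interval 83.7 to 93.4). All 7 had more FM-specific than KO-specific regions. Without Plxna4 the share was 81.9% (interval 72.6 to 89.1), which includes the value of all genes. Plxnc1, the receptor of Sema7a, had 19, 28 and 4, and Plxnd1, a plexin of the endothelium, 8, 10 and 1. The neuropilins Nrp2 and Nrp1, co-receptors of secreted semaphorins, had 18, 26 and 5, and 4, 9 and 2.

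The 5 EphB genes had 88 shared, 116 FM-specific and 19 KO-specific regions, a share of 85.9%, or 80% (interval 68.2 to 88.9) without Ephb1. Ephb2 had 32, 35 and 6, and Ephb3 21, 11 and 5. The 9 EphA genes had 46, 34 and 14, a share of 70.8% (interval 55.9 to 83.0), against 73.7% over all genes. Each of them had more FM-specific regions, often by few, with 1 and 0 at Epha3 and Epha6 and 3 and 2 at Epha1 and Epha7. Over all genes with a specific region, 76.6% had more FM-specific ones. Epha2, an ephrin-A receptor of early epithelia, had 16, 7 and 2, Epha10 had 5, 6 and 0, and Epha4 had 10, 6 and 5.

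The 4 Robo genes had 18 shared, 26 FM-specific and 4 KO-specific regions. Robo1 had 5, 15 and 1, while its surroundings within 2 Mb held 3 FM-specific and 3 KO-specific regions. Robo3, which acts in midline crossing, had 8, 3 and 1. Of the netrin receptors, Unc5b had 18, 24 and 8 regions and Unc5a 15, 19 and 6. Dcc, the attractive netrin receptor, had 0 shared, 1 FM-specific and 1 KO-specific region over 1098 kb, both weak, with folds of 1.86 and 1.78.

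A gene's split followed that of its neighbourhood in part. Across the 45 genes with at least 5 specific regions, the FM-specific share of a gene and that of the surrounding 2 Mb on each side had a Pearson r of 0.586 and a Spearman rank coefficient of 0.516. This is a description across genes that share the same pair of lists, and neighbouring members share surroundings. The gene's share was above its surroundings in 20 genes and below in 25. Plxna4 had 97.6% in surroundings of 87.1%, Ephb1 91.4% in 83.5% and Slit3 84.3% in 86.4%. The part of the neighbourhood in these splits was not tested.

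**Figure D3:**
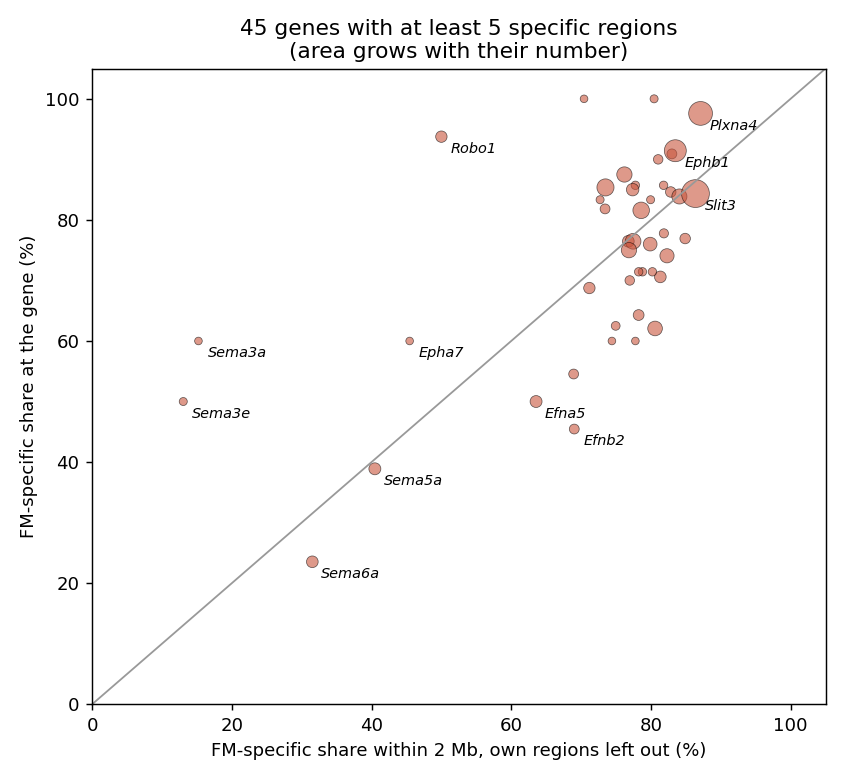
FM-specific share at each of 45 genes (y axis, percent) against the share within 2 Mb on each side with the gene's own regions left out (x axis, percent), with point area growing with the number of specific regions and a line of equality. Sema6a and Sema5a lie near the line at low shares, and Robo1, Sema3a and Sema3e lie above it.

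Plxna4 (gene ID 243743, chromosome 6: 32144543 to 32588192, mm10) showed FM-specific regions along its whole length. From the lower to the higher coordinate, 4 equal parts of the gene held 16, 13, 23 and 21 FM-specific regions and 1, 0, 0 and 1 KO-specific ones. The longest run of neighbouring FM-specific regions numbered 29 and spanned 137 kb, from 32329175 to 32466511. Inside the gene the FM list had 18.9 peaks per 100 kb and the KO list 3.38. Its strongest FM-specific peaks lay in the gene at 32377084 to 32377890 (fold 3.39, 123 fragments) and 32397010 to 32397423 (fold 2.90, 99 fragments). At its 12 shared regions the median log2 ratio of FM over KO fold was −0.14, so the shared peaks were not higher in the FM list. Keeping peaks of −log10 q 5 and above, the counts at Plxna4 were 29 (FM) and 0 (KO). With 50000 peaks from each list they were 8 and 4, in a setting where 50.6% of specific regions over all genes were FM-specific. In both settings a specific region can overlap a weaker peak left out of the other list. The 2 KO-specific regions of the full lists reached a −log10 q of only 1.64, too weak for either setting. The 4 KO-specific regions seen with 50000 peaks thus lay in regions that are shared in the full lists.

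Slit3 (chromosome 11: 35121456 to 35708507) had specific regions of both kinds. Its 4 equal parts held 19, 18, 25 and 26 FM-specific and 0, 6, 2 and 10 KO-specific regions, and its longest FM-specific run numbered 9 over 30.8 kb. The strongest FM-specific peak at any of the 68 genes lay in it, at 35544177 to 35544985 (fold 3.66, −log10 q 32.3, 130 fragments). The strongest KO-specific peak of Slit3 was at 35325109 to 35325603 (fold 2.74). Its shared regions also included the largest ratios toward FM, with 3.79 (FM) against 1.93 (KO) at 35505847 to 35506340 and 3.38 against 1.75 at 35611656 to 35612922. With 50000 peaks from each list it had 16 FM-specific and 7 KO-specific regions, some of which can overlap weaker peaks left out of the other list.

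Ephb1 (chromosome 9: 101922128 to 102354693, minus strand) had 9, 13, 18 and 13 FM-specific regions in 4 equal parts from the lower coordinate. Its start lay in a peak of lower fold in the FM list (2.67) than in the other (4.57). The gene thus had many more regions in the FM list and a weaker start peak there. Its strongest FM-specific peak was at 102296924 to 102297237 (fold 2.78) and its strongest KO-specific one at 102193299 to 102193727 (fold 2.69). With 50000 peaks from each list it had 10 FM-specific and 5 KO-specific regions, some of which can overlap weaker peaks left out of the other list. Over all genes 50.6% of specific regions were FM-specific in that setting.

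**Figure D4:**
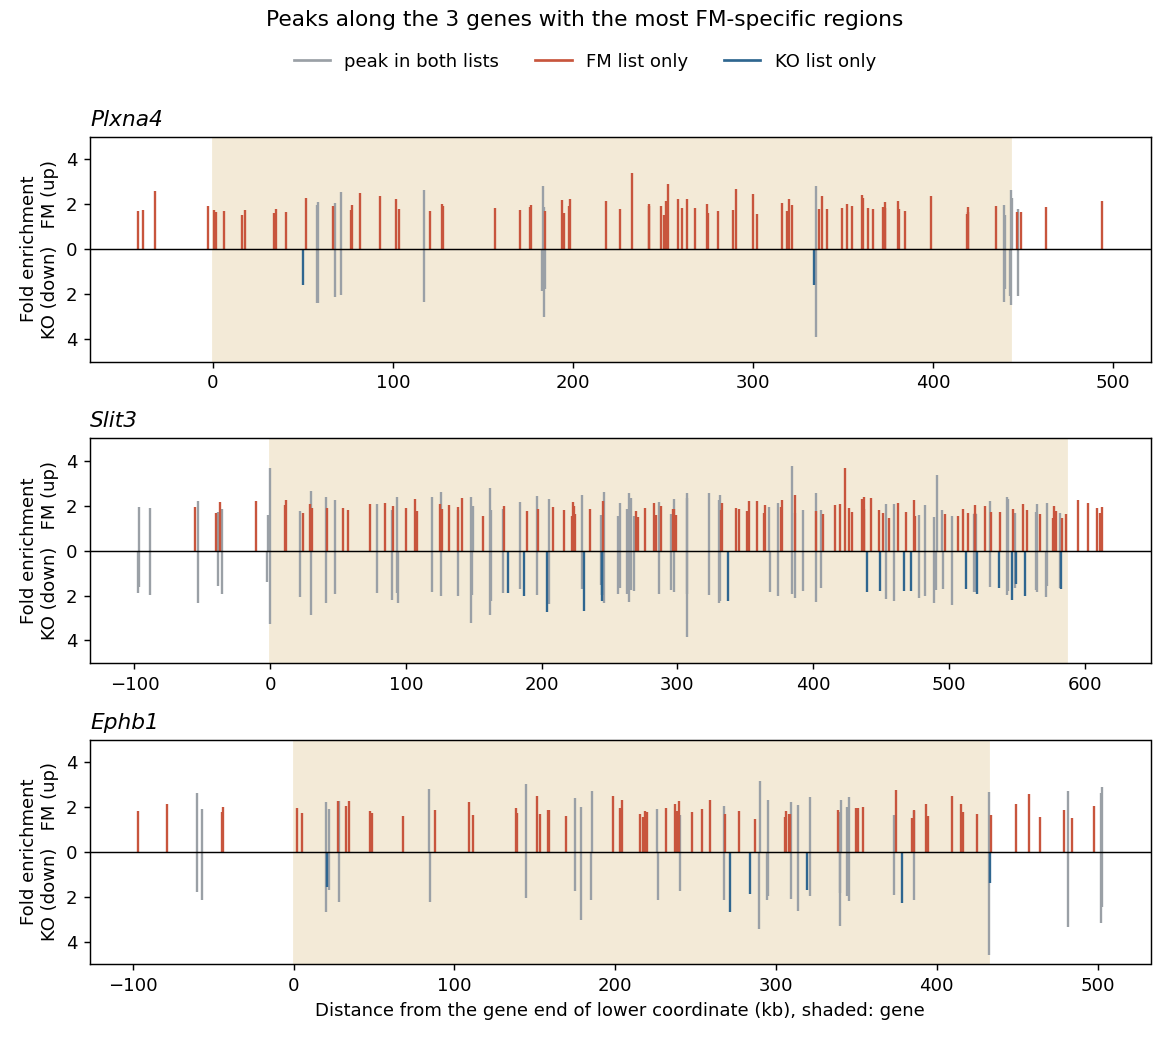
Fold enrichment of each peak (y axis, FM list upward, KO list downward) against the distance in kb from the end of lower coordinate of Plxna4, Slit3 and Ephb1 (x axis, gene shaded), in grey where the region is shared, red for FM list only and blue for KO list only. FM-specific peaks of fold near 2 run along all of Plxna4, whereas Slit3 has shared and KO-specific peaks among them.

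Slit2 and Slit3 each carry a copy of the microRNA gene Mir218, which reads the same mature strand from both. This sequence and its place were looked up after the peaks had been seen, because the Slit hosts are the textbook source of this microRNA. The mature strand is printed with its seed, bases 2 to 8, in capitals.
mmu-miR-218-5p: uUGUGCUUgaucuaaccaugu
The Mir218-2 hairpin in Slit3 (chromosome 11: 35616816 to 35616925) was overlapped by a shared peak of fold 1.80 (FM) and 1.73 (KO). The Mir218-1 hairpin in Slit2 (chromosome 5: 48223942 to 48224051) had its nearest peak 148 kb away in both lists. The copy in Slit3 thus lay in open chromatin of both lists and the copy in Slit2 did not lie in a called peak.

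Counted per length, the guidance genes had 10.4 FM peaks and 6.44 KO peaks per 100 kb of gene, against 19.2 and 12.9 over all genes. Counting summits inside genes, the values were 7.47 and 4.31 against 11.9 and 7.69. Set against genes of like length, the densities differed in both directions. The 18 guidance genes under 20 kb had 78.0 regions per 100 kb against 63.8 in all genes of that length, and the 14 of 20 to 50 kb had 60.7 against 33.8. The 3 of 50 to 100 kb had 68.2 against 25.3, and the 14 of 100 to 200 kb had 24.4 against 20.0. The 8 of 200 to 400 kb had 2.76 against 14.2, and the 11 of 400 kb and more 5.57 against 6.12. Members under 200 kb were thus denser in regions than all genes of their length, and those of 200 to 400 kb sparser. These densities include regions up to 100 kb outside the gene, which weigh most on short genes.

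The densest members were Ephb3 with 198 regions per 100 kb, Efna2 with 152, Efna1 and Efna4 with 108 each, and Sema4f with 104. These genes are at most 27.9 kb long, and regions up to 100 kb away count for them. The sparsest were Epha6 with 1 region over 969 kb, Unc5d with 1 over 573 kb, Dcc with 2 over 1098 kb, Robo2 with 7 over 1556 kb and Sema3d with 1 over 206 kb. The single regions of Unc5d and Sema3d were shared and strong, with folds of 4.50 (FM) and 3.79 (KO) at Unc5d and 3.96 and 5.06 at Sema3d.

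Of the 74 annotated starts of the 58 genes with a start in the table, 57 (77.0%) lay in a peak of both lists, against 62.1% of all starts. Another 5 lay in an FM peak only (6.76%, against 4.08% of all starts), 2 in a KO peak only (2.70%, against 2.33%) and 10 in neither (13.5%, against 31.4%). The starts with an FM peak only belonged to Epha3, Epha5, Epha6, Robo2 and Sema4a, of which the first 4 are long genes with few regions. The Epha3 start lay in an FM peak of fold 2.61 and −log10 q 11.1 (76 fragments), and the nearest KO peak was 6762 bp away. Epha5 had a peak over its start of fold 1.83 (53 fragments) and 1 more within the gene of fold 2.50, with no KO peak assigned to it, and Epha6 1 of fold 2.00 (58 fragments). The Robo2 start of highest coordinate had a fold of 1.89 (55 fragments), while its start at 74411825 lay in shared peaks of 5.08 and 3.72. Apart from Epha3 and Sema4a these are weak peaks.

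Sema4a, a semaphorin also known from immune cells, has 4 annotated starts. The outermost lay in an FM peak of fold 2.06 (124 fragments) with the nearest KO peak 2060 bp away. The pair of starts next to it lay in peaks of both lists with folds of 1.91 (FM) and 2.36 (KO). The starts with a KO peak only were those of Efna3 (fold 2.16, 188 fragments) and Sema6b (fold 1.59, 142 fragments). There the nearest FM peak was 74 bp and 53 bp from the start, and both KO peaks belonged to shared regions.

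Start peaks in both lists were mostly of higher fold in the KO list, as over all genes. For the 50 genes with such a start (the strongest start of each), the median fold was 3.12 (FM) and 3.33 (KO). The KO fold was higher in 38 of 50 (76.0%), against 80.2% of all genes, and the median log2 ratio of FM over KO was −0.23 against −0.24. The ratio ran from −0.77 at Ephb1 to 0.79 at Sema6d. Sema6d, a transmembrane semaphorin of heart and nerve, had a start fold of 4.64 (FM) and 2.68 (KO). Sema3c, a secreted semaphorin, had 3.99 and 6.43, and Sema6c 2.97 and 4.83.

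**Figure D5:**
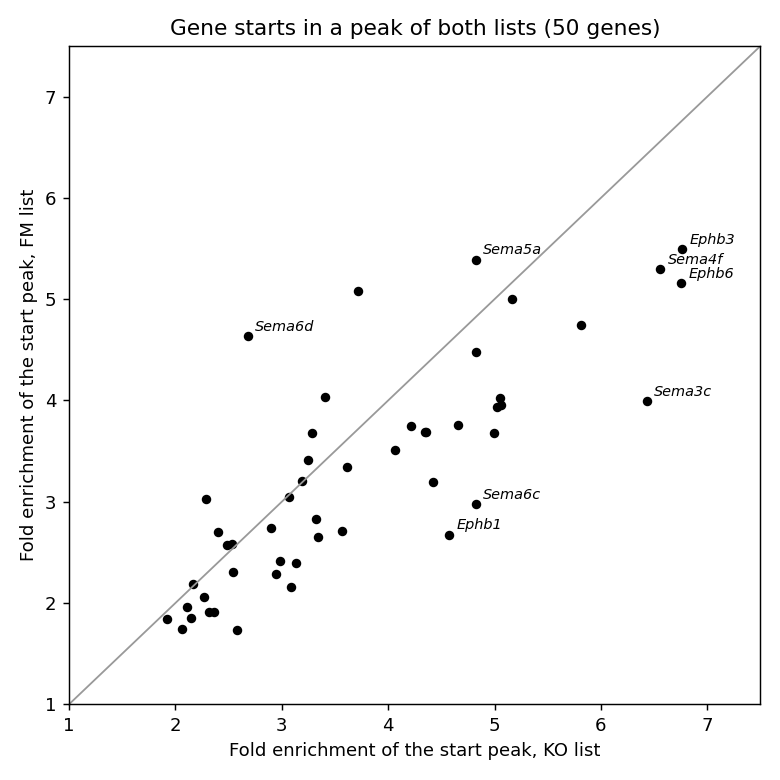
Fold enrichment of the peak over the gene start in the FM list (y axis) and in the KO list (x axis) for 50 genes, with a line of equality. In 38 genes the point lies below the line, and Sema6d stands above it with 4.64 against 2.68.

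At all 639 shared regions of the guidance genes, the median log2 ratio of FM over KO fold was 0.0015, against −0.0039 over all genes. The KO fold was the higher one at 319 (49.9%), against 50.5% over all genes. The FM fold was at least 1.5 times the KO fold at 11 of them (1.72%, against 1.76% of all shared regions), and the reverse held at 23 (3.60%, against 3.37%). Shared regions thus split as they did over all genes. The largest ratios toward KO were inside Epha4 (chromosome 1: 77422306 to 77423064, 1.79 FM and 3.89 KO), inside Sema6a (18: 47318505 to 47319159, 2.10 and 4.44) and inside Robo3 (9: 37420599 to 37421596, 2.64 and 4.87). Among genes with at least 5 shared regions, the highest medians were 0.22 at Sema6c, 0.19 at Sema6d, 0.09 at Sema4d, 0.08 at Efna3 and 0.07 at Ephb2. The lowest were −0.26 at Plxnb2, −0.20 at Robo3, −0.18 at Robo1 and at Plxnd1, and −0.15 at Epha2.

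The peaks of highest fold were shared. In both lists the first was a peak inside Efna5 (chromosome 17: 62737447 to 62737841 in the FM list), with 6.19 (FM, 182 fragments) and 7.87 (KO, 259 fragments). It was followed in the FM list by the start peaks of Ephb3, Sema5a, Sema4f (5.30) and Ephb6. In the KO list the next were at Ephb3, Ephb6, Sema4f (6.56) and Sema3c (6.43).

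Strong specific peaks, those of −log10 q 10 and above without overlap in the other list, came to 44 (FM) and 30 (KO). Over all genes there were 5782 and 3084, so the split at the guidance genes leaned less toward FM. Those at the guidance genes were 3.11% of their FM peaks, against 3.01% over all genes, and 3.44% of their KO peaks, against 2.38%. The FM peaks lay at 26 genes and the KO peaks at 20, 8 of them in common, and 30 genes had neither. No such gene counts over all genes stand beside these, and the guidance genes are longer. Whether these counts are unusual therefore cannot be said. Plxna4 and Slit3 had 6 FM peaks each, Ephb1 and Plxnc1 3 each, and Nrp2, Ntn1, Plxnd1 and Sema4f 2 each. One each lay at Efna2, Efna5, Epha3, Epha10, Ephb6, Nrp1, Ntn4, Plxna2, Plxnb1, Robo3, Sema3e, Sema3g, Sema4a, Sema5a, Sema5b, Sema6b, Slit1 and Unc5b.

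The KO peaks were spread more evenly. Sema6a had 3, and Efna5, Epha1, Epha4, Ephb3, Sema5a, Sema6d, Slit1 and Slit3 had 2 each. One each lay at Efna2, Efnb2, Epha7, Epha8, Ephb1, Ephb2, Ephb4, Sema3c, Sema3e, Sema4f and Sema7a. The highest −log10 q was 25.1, for a peak 4.42 kb from Ephb4, a receptor of venous endothelium (chromosome 5: 137345433 to 137346112, fold 2.41, 199 fragments). Of highest fold was a peak 62.0 kb from Sema6a (18: 47432968 to 47433530, fold 3.11). In the FM list the next after those of Slit3 and Plxna4 were inside Ntn1 (11: 68341634 to 68341948, −log10 q 18.5) and inside Sema5a (15: 32535827 to 32536064, fold 3.11).

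Specific peaks were rarer at gene ends than shared ones. A summit within 1 kb of an end of the gene was found for 11.3% of shared FM peaks and 2.69% of FM-specific peaks at the guidance genes (over all genes 16.8% and 4.75%). For KO peaks the values were 11.1% and 3.37% (over all genes 16.7% and 4.78%). Gene bodies held 71.9% of FM-specific peaks and 60.1% of KO-specific peaks, against 60.0% and 54.4% over all genes.

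The promoter windows, 250 bases before each start, were searched on both strands for 7 motifs. GGGCGG was in 53 of the 74 windows (71.6%), against 43.4% of the 20085 windows of all genes. TAATTA, a homeodomain core, was in 3 (4.05%, against 4.26%), at Efna1, Epha5 and Robo3. CACGTG, the E box, was in 4 (5.41%, against 6.69%). The paired homeodomain palindrome, in which 3 free bases part TAAT from its reverse complement, was in 0 windows, against 0.378% of all. The forkhead motif TGTTTAC, the T-box motif AGGTGTGA and the octamer ATGCAAAT were also in 0, against 2.64%, 1.01% and 1.59%. For each motif with 0 matches, the rate over all windows was so low that 0 among 74, some overlapping, says little. None of these motifs excludes an overlap with another. The median GC content was 65.6% for starts in both lists and 52.6% for starts in neither, against 61.6% and 44.4% over all genes. A match says that the letters are there, and no match that they are not in this window.

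Of the other pathway genes, 46 co-receptors, further ligands and effectors of guidance signalling had 528 shared, 733 FM-specific and 191 KO-specific regions, a share of 79.3%, against 73.7% over all genes. More FM-specific regions were at 35 of them and more KO-specific at 4. The counts were equal at 7, of which Dpysl4, Flrt2, Mical1 and Nck1 had no specific region. Among all genes with a specific region these were 76.6% (more FM-specific) and 15.5% (more KO-specific). Dock1, an activator of Rac, had 60 FM-specific and 6 KO-specific regions. Srgap1, which acts downstream of Robo, had 45 and 1, and Ngef, the effector ephexin of Eph receptors, 14 and 0. Nrcam, a cell adhesion co-receptor, had 13 and 14, and Pak1, a kinase activated by Rac and Cdc42, 1 and 3. The median log2 ratio at their shared regions was −0.0036.

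Markers of several cell types had peaks at gene ends in both lists. Of 8 neuronal markers, 7 had an FM peak within 1 kb of a gene end and 6 had a KO peak there. For 6 epiblast markers the counts were 4 and 5, with Otx2 in neither, for 5 endothelial markers 4 and 3, for 4 neural crest markers 3 and 3, and for 5 fibroblast markers 5 and 5. All 4 streak markers (T, Eomes, Mixl1 and Gsc) had one in each list. Of 3 blood markers, 1 had one in each list, and Hbb-bs and Ptprc had none. The median top fold at the streak markers was 3.50 (FM) and 2.14 (KO), and at the endothelial markers 3.11 and 4.58. At the neuronal markers it was 2.72 and 3.06, and at the epiblast markers 2.95 and 2.97. The neural crest markers had 2.77 and 2.60, the fibroblast markers 3.15 and 3.13, and the blood markers 2.05 and 1.94. Mixl1, the gene altered between the groups, is among the streak markers, so these are no independent markers. FM-specific and KO-specific regions numbered 102 and 14 at the endothelial markers, 84 and 13 at the fibroblast markers and 36 and 6 at the neural crest markers. They numbered 31 and 12 at the streak, 30 and 11 at the epiblast and 19 and 7 at the neuronal markers, and 2 and 6 at the blood markers. Over all genes 73.7% of specific regions were FM-specific. The part of other cell types in the splits above was not tested.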

How the data were processed

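Open chromatin was measured by ATAC-seq in 3 Mixl1 knockout and 3 Mixl1-induced libraries. Peaks were called with MACS2 on mm10 alignments by Bowtie2, with SAMtools and bcl2fastq also named, per the submitters' processing notes. Their versions, how libraries were pooled, any Tn5 shift and any duplicate filter were not given in the sources that served here. The authors deposited 1 peak list per group without a header, with fold enrichment (a ratio) and −log10 of p and q per summit; the lowest −log10 q was 1.30. Depth in reads is unknown, so the precision of each value is given by counts of regions or fragments. Summits of 1 peak were collapsed to the lowest p-value, autosomal peaks kept, and lists merged where they overlapped by 1 bp. Distances to genes came from a RefSeq table of GRCm38.p6, with ties counted for each gene, and 8 regions also fell to a gene outside the families. Fragments at summits were solved from fold and p, and of the 204467 FM and 137373 KO peaks this could be done for, 99.996% and 99.991% were whole within 0.02. Classes, genes and lists were chosen with earlier results of these data known. Named are the 2 genes of most regions per class, extremes of share (6 each way), ratio and density (5 each way), strong specific peaks and peaks of highest fold. Functions were tested on simulated data. Python 3.11.15, pandas 2.3.3 and SciPy 1.17.1 were used. The alternatives tried are given in the closing section.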

Additional observations from a re-analysis of the deposited data

Results flagged for a closer look

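Members of the same families on X lie outside the autosomal rule, and their peaks entered no comparison. They are listed as signal outside the counted data. Efnb1, an ephrin-B ligand, had 20 FM peaks (highest fold 3.21) and 10 KO peaks (highest fold 3.91). Plxna3 had 4 FM peaks (highest fold 4.37) and 1 KO peak (fold 5.47). Plxnb3 had 3 FM peaks (highest fold 2.61) and 2 KO peaks (highest fold 1.81).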

How the results depend on the processing

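No paired analysis was possible because each group is 1 peak list, and for the same reason no replicate could be left out. The FM-specific share of 78.1% was 74.2% for peaks of −log10 q 5 and above, 51.0% with 50000 peaks from each list and 81.2% with summits inside genes. Leaving out Plxna4, Slit3 and Ephb1, chosen after the data were seen, gave 73.4% and turned the difference from all genes to −0.357 percentage points. With all genes kept the difference was 1.35 points for −log10 q of 5 and above and 0.388 points with 50000 peaks from each list. The share stayed between 76.3% and 80% with genes within 10 kb, without chromosomes 12, 15 and 18, with an overlap of 50% of the shorter peak, without Slit3 and without Plxna4. The median log2 ratio at shared regions was −0.046 with −log10 q of at least 5 and −0.075 with 50000 peaks. Peaks per 100 kb were 5.89 (FM) and 3.71 (KO) with −log10 q of at least 5, 2.46 and 2.37 with 50000 peaks, 8.45 and 5.16 within 10 kb, 7.47 and 4.31 inside genes, 11.6 and 6.98 without chromosomes 12, 15 and 18, and 14.0 and 9.02 with each summit counted. In the FM list they were 9.64 without Slit3 and 8.80 without the 3 genes. Strong specific peaks numbered 295 (FM) and 87 (KO) at −log10 q of at least 5, and 2 and 1 at 20. These counts depend on the threshold by construction, and the cause of the other shifts was not tested.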

Other observations

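Peaks whose nearest gene is a guidance gene but lies beyond 100 kb were left out, 107 FM and 83 KO peaks. Ephb1 had 21 and 5 of them, and Efnb2 had 16 and 19. The farthest peak counted lay 99.2 kb from Ephb3 (FM list, fold 1.81), and the closest one left out 100.9 kb from Unc5b (KO list, fold 1.65).

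Besides Mir218-2, the hairpins overlapped by shared peaks were Mir6352 in Epha4, with folds of 2.20 (FM) and 2.88 (KO), and Mir7011 in Sema4a. Mir7243 in Ephb1 lay 1.78 kb from an FM-specific peak of fold 1.49.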
